A study of Homo sapiens with 40 samples.

Results

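The comparison described here is between PCB 126 at 1 µM and PCB 126 at 10 nM in HepaRG cells, a further 100-fold in concentration above a dose that already induced the dioxin-responsive genes. It rests on 10 of the 40 RNA sequencing libraries of the series, 5 from each concentration, chosen by their labels. HepaRG (supplied as HPR 116) is a liver-derived human line whose differentiated cultures hold hepatocyte-like cells beside biliary-like ones. All groups were exposed from day 8 to day 14, that is for 6 days, in medium that also held 2% FBS and 1% DMSO, and the control group received the solvent without PCB 126. The 5 control libraries are used here to say where a gene stood before the step from 10 nM to 1 µM. The cells are a single line, and the labels do not say that the 5 libraries of a group came from separate cultures, so a p-value measures the spread between these libraries, which may be technical. The replicate number of a library is an identifier taken from runs of library numbers in the labels.

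PCB 126 belongs to the polychlorinated biphenyls that act like dioxin, as ligands of the aryl hydrocarbon receptor (AhR). The ligand-bound receptor enters the nucleus, pairs with ARNT and binds DNA at sites with the core GCGTG, from which CYP1A1, CYP1A2 and CYP1B1 are strongly induced in liver cells. Other targets restrain the receptor, among them AHRR, which competes for ARNT, and TIPARP, an ADP-ribosyltransferase.

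The values are FPKM, fragment numbers divided by transcript length and by the mapped total of a library, summed here over the transcripts of each of 56568 named genes. Of these genes, 9755 had a variance of FPKM above 1 over the 20 libraries of the PCB 126 experiment and entered the tests. Differences are given as log2(FPKM + 1) at 1 µM minus that at 10 nM, a scale that understates the change of low genes. The FPKM of named genes summed to 287504 ± 83537 (SD, n = 5) at 10 nM and to 321337 ± 66291 at 1 µM (2-sided exact permutation test, p = 0.563), and 23130 to 31842 genes were above 0 in a library at 10 nM against 24397 to 31281 at 1 µM. The 10 most abundant genes held 39% ± 8.03 (SD, n = 5) of the FPKM at 10 nM and 47.0% ± 3.07 at 1 µM (exact p = 0.0317, 0.0952 after Benjamini-Hochberg adjustment over 3 library measures). Libraries within a dose differed in scale: the 75th percentile of FPKM was 2.47 in replicate 3 of 10 nM and 4.16 to 4.65 in the other 10 nM libraries, and 2.93 in replicate 1 of 1 µM against 3.62 to 4.71 in the other 1 µM libraries. FPKM carry no read counts, so no counting interval is given for a value here.

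Across the transcriptome, the 100-fold higher concentration produced no gene past the threshold. Of 9755 genes tested with limma in a fit of all 4 PCB 126 groups, 0 (0%) had an adjusted p under 0.05 at 1 µM against 10 nM, and the smallest adjusted p was 0.9997. An unadjusted p under 0.05 was found for 324 genes (3.32%), of which 123 (1.26%) were higher and 201 (2.06%) lower at 1 µM. Such genes numbered 854 with 75th percentile scaling (411 higher and 443 lower), 1371 with quantile normalization (657 and 714) and 1366 with a library-size term in an ordinary linear model (737 and 629). An ordinary linear model without that term also called 0 (245 at an unadjusted p under 0.05). With array weights, which give less weight to libraries far from their group, limma called 78 genes (37 higher and 41 lower), among them SLC37A2, STC2, SERPINB2 and APOA2 (adjusted p = 0.0130, 0.0219, 0.0479 and 0.0358). The median difference over all genes tested was −0.05 on the log2 scale, and 5634 of the 9755 genes (57.8%) lay below 0. That share was 31.1% without replicate 1 of 1 µM and 77.4% without replicate 3 of 10 nM. Against the same 5 control libraries, 20 genes passed at 10 nM (0.205%), 14 of them raised (0.144%) and 6 lowered (0.0615%). At 1 µM 182 passed (1.87%), 63 raised (0.646%) and 119 lowered (1.22%), and all 20 were among the 182. With quantile normalization 532 were raised and 553 lowered at 1 µM against control, and with the library-size term 448 and 375. Since these comparisons share their control libraries, the larger count at 1 µM is not a test of the step between the doses.

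The CYP1 genes stood far above control at 10 nM and had no higher mean at 1 µM. CYP1A1, which oxidises polycyclic aromatic substrates (GRCh38 chr15:74719542-74725610, minus strand), was at 377, 349, 92.1, 228 and 292 FPKM in 10 nM replicates 1 to 5 and at 85.2, 251, 214, 389 and 234 FPKM in 1 µM replicates 1 to 5. The control libraries were at 0 to 7.69 FPKM. Within each dose 1 library was low, replicate 3 at 10 nM and replicate 1 at 1 µM, and the remaining values of the doses lay among each other. The means were 268 ± 113 (SD, n = 5) and 235 ± 108 FPKM, and the difference was −0.19 on the log2 scale (95% interval −2.06 to 1.69, exact p = 0.643). In a fit of only these 10 libraries the interval was −1.08 to 0.71. The interval from 4 groups held both a doubling and a halving, and that from the 10 libraries a halving but no doubling. Without replicate 1 of 1 µM the difference for CYP1A1 was 0.14.

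CYP1A2, the caffeine-metabolising enzyme of hepatocytes, was at 335, 398, 78.2, 233 and 133 FPKM at 10 nM and at 47.1, 168, 154, 260 and 142 FPKM at 1 µM. The same libraries were lowest in each dose, and the ranges overlapped (difference −0.57, interval −2.12 to 0.99, exact p = 0.365). In the fit of only the 10 libraries the interval of CYP1A2 was −1.55 to 0.42, which held a halving but no doubling. CYP1B1, which hydroxylates estrogens, was at 158, 52.0, 38.2, 109 and 373 FPKM at 10 nM and at 168, 59.6, 52.0, 227 and 27.9 FPKM at 1 µM. Replicate 5 was the highest library for CYP1B1 at 10 nM and the lowest at 1 µM, and the difference was −0.39 (interval −1.47 to 0.70, exact p = 0.659), or 0.07 without replicate 5 of 10 nM. The fit of only the 10 libraries gave an interval of −1.62 to 0.85 for CYP1B1. CYP1B1-AS1, annotated on the opposite strand and overlapping CYP1B1, was at 9.16 ± 3.91 FPKM (SD, n = 5) at 10 nM and 16.3 ± 4.32 at 1 µM (difference 0.83, interval 0.19 to 1.47, exact p = 0.0317). Whether strand was used in the quantification is not given in the sources used here, so reads of CYP1B1 and CYP1B1-AS1 may not be told apart.

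3 further genes that rose at 10 nM had intervals that stayed within 1 log2 unit of no difference. ALDH3A1, an aldehyde dehydrogenase and classical AhR target, was at 449, 312, 185, 423 and 365 FPKM at 10 nM and at 387, 469, 436, 575 and 365 FPKM at 1 µM, against 64.6 to 160 in control. Replicate 3 of 10 nM was again the lowest, and the other 9 libraries lay between 312 and 575 FPKM (difference 0.41, interval −0.17 to 0.99). ALDH1A3, which makes retinoic acid from retinaldehyde, was at 4.74 ± 1.74 FPKM (SD, n = 5) at 10 nM and 6.48 ± 1.72 at 1 µM (difference 0.42, interval −0.13 to 0.96). TAT, tyrosine aminotransferase, was at 3.61 ± 1.64 and 3.66 ± 1.34 FPKM (difference 0.08, interval −0.53 to 0.68), and was named after its values were seen. In the fit of only these 10 libraries the intervals of ALDH1A3 and ALDH3A1 reached 1.09 and 1.06, which no longer stayed within 1 log2 unit. That of TAT, −0.66 to 0.81, did.

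**Figure D1:**
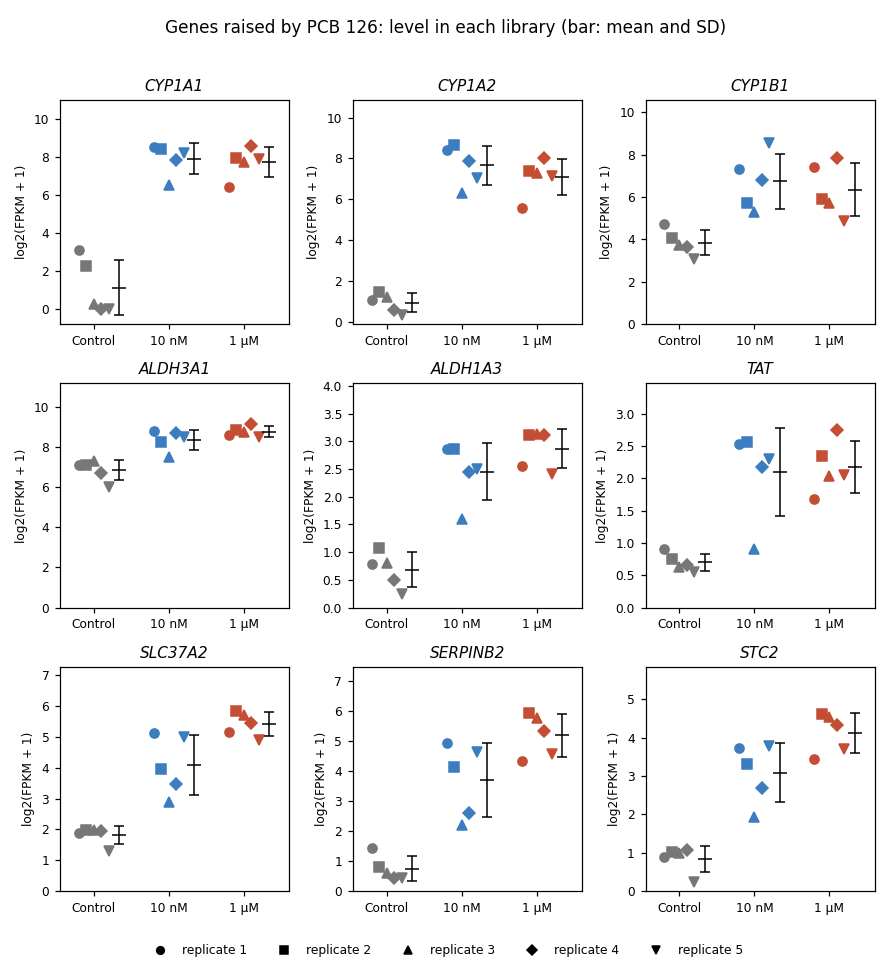
Level of 9 genes raised by PCB 126 in each library of the control, 10 nM and 1 µM groups, as log2(FPKM + 1) on the vertical axis, with 1 symbol per library, its shape the replicate number, and the mean and SD of the 5 libraries beside them. CYP1A1, CYP1A2 and CYP1B1 show no higher mean at 1 µM (differences −0.19, −0.57 and −0.39), whereas the means of SLC37A2, SERPINB2 and STC2 were higher by 1.33, 1.5 and 1.04, and replicate 3 of 10 nM is the lowest 10 nM library in all 9 panels.

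Among the 20 genes called at 10 nM, those with the smallest unadjusted p for a higher level at 1 µM were SLC37A2, SERPINB2 and STC2. SLC37A2, a member of the glucose-6-phosphate transporter family (chr11:125063067-125090312, plus strand), was at 34, 14.7, 6.36, 10.2 and 30.8 FPKM at 10 nM and at 34.6, 56.1, 52.1, 43.2 and 28.9 FPKM at 1 µM, with control at 1.46 to 2.97. 4 of the 1 µM libraries lay above every 10 nM library, and replicate 5 of 1 µM lay below 2 of them. The difference was 1.33 (interval 0.62 to 2.03, exact p = 0.0317, adjusted p = 0.9997 in limma). It stayed between 1.03 and 1.59, with an unadjusted p under 0.05, in each of the 10 fits that left out 1 library of the 2 doses.

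SERPINB2, plasminogen activator inhibitor 2 (chr18:63871692-63903890, plus strand), was at 29.6, 16.8, 3.58, 5.07 and 24 FPKM at 10 nM and at 19.4, 61, 54.2, 39.6 and 22.8 FPKM at 1 µM. Replicates 2, 3 and 4 of 1 µM lay above all 10 nM libraries and replicates 1 and 5 among them (difference 1.5, interval 0.56 to 2.43, exact p = 0.0556). STC2, stanniocalcin 2, a secreted glycoprotein (chr5:173314713-173329503, minus strand), was at 12.3, 8.88, 2.81, 5.49 and 12.7 FPKM at 10 nM and at 9.92, 23.6, 22.2, 19 and 12.1 FPKM at 1 µM. The same 3 libraries of 1 µM were above the 10 nM range (difference 1.04, interval 0.34 to 1.74, exact p = 0.0476). Leaving out replicate 3 of 10 nM gave the smallest difference for both genes, 1.12 for SERPINB2 and 0.75 for STC2.

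The ratio of these genes to CYP1A1 within the same library, computed after their values were seen, separated the doses. STC2 stood at 2.41% to 4.36% of the FPKM of CYP1A1 at 10 nM and at 4.88% to 11.6% at 1 µM. SLC37A2 stood at 4.20% to 10.5% and at 11.1% to 40.6%, and SERPINB2 at 2.22% to 8.20% and at 9.73% to 25.3%. For each of the 3 genes the lowest 1 µM library was above the highest 10 nM library. These ratios are descriptions, since the genes were chosen for their differences.

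TIPARP, the AhR-restraining ADP-ribosyltransferase (chr3:156673235-156706770, plus strand), was at 51.3, 36.0, 7.85, 19.4 and 38.9 FPKM at 10 nM and at 20.9, 73.6, 68.3, 62.4 and 41.4 FPKM at 1 µM, against 2.30 to 5.84 in control. 3 libraries of 1 µM exceeded the 10 nM range, and replicate 1 of 1 µM lay low within it. Its difference of 0.89 had an interval of 0.01 to 1.76 (exact p = 0.151), and an unadjusted p under 0.05 in 4 of the 10 fits that left out a library. CYB561A3, of the cytochrome b561 family, was at 55.6 ± 26.3 FPKM (SD, n = 5) and 95.9 ± 30.0, a difference of 0.87 (interval 0.16 to 1.59). SCG5, the neuroendocrine chaperone 7B2, differed by 0.67 (interval 0.04 to 1.29) and MB21D2 by 0.59 (interval 0.02 to 1.16). In the fit of the 10 libraries alone the intervals of TIPARP, SCG5 and MB21D2 included 0.

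The promoters of 5 of these genes are shown because they stand for the responses above: CYP1A1 (unresolved), ALDH1A3 (within 1 log2 unit), and STC2, TIPARP and SERPINB2 (further increase). Each is the 250 bases before the RefSeq start in GRCh38.p14, 5′ to 3′ on the strand of the gene. Capitals mark GCGTG or its reverse complement CACGC. The regions are chr15:74725529-74725778 for CYP1A1, chr15:100879581-100879830 for ALDH1A3, chr5:173328415-173328664 for STC2, chr3:156674340-156674589 for TIPARP (of 3 listed starts, the start with the most cores) and chr18:63887455-63887704 for SERPINB2.
CYP1A1: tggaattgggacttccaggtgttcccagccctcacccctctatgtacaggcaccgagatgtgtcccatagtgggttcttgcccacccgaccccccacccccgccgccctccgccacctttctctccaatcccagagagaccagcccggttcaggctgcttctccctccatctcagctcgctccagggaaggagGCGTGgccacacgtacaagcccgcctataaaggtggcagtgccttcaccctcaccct
ALDH1A3: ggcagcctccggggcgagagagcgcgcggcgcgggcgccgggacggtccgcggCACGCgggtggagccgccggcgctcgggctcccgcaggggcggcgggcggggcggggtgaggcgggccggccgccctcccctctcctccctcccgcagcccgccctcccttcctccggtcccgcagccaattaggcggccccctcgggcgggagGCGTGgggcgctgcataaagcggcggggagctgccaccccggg
STC2: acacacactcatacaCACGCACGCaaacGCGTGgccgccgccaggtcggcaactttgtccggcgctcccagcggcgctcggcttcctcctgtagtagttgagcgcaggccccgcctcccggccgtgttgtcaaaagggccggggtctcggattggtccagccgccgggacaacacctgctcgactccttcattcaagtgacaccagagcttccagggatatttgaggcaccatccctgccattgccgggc
TIPARP: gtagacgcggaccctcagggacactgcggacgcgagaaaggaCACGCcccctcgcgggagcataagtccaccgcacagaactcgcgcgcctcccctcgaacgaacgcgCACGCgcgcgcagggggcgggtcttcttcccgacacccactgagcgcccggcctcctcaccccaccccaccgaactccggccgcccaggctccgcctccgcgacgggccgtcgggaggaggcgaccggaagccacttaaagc
SERPINB2: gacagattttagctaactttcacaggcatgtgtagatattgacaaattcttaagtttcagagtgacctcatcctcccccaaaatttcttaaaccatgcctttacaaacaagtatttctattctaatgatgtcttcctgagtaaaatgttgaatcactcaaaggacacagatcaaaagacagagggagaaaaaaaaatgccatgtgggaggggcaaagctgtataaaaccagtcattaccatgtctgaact

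CYP1A1 held 1 core in this window, ALDH1A3 2, TIPARP 2, STC2 3, of which 2 overlap, and SERPINB2 0. A match is a description and no match says only that these letters are not in the window. Over windows of 300 bases, from 250 before to 50 after the start, the core was present on either strand in 36.5% of 35116 windows, and in 59.4% of the 7252 tested genes with a window. Of the 20 genes called at 10 nM, 13 had a window and 8 of these held the core (61.5%). It was present in 16 of 27 genes (59.3%) with further increase at 1 µM and in 5 of 8 (62.5%) of the raised genes within 1 log2 unit and 3 of 7 (42.9%) of the unresolved raised genes.

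3 of the 6 genes that fell at 10 nM had lower levels again at 1 µM. COL3A1, the fibrillar collagen III chain (chr2:188974320-189012746, plus strand), was at 2.06, 2.72, 3.33, 8.06 and 0.312 FPKM at 10 nM and at 0.826, 0.406, 0.345, 0.919 and 0.382 FPKM at 1 µM, against 7.99 to 16.7 in control. All 1 µM libraries lay below 4 of the 10 nM libraries, and replicate 5 of 10 nM was the lowest of the 10 (difference −1.2, interval −1.98 to −0.42, exact p = 0.0476). DEFB1, a beta-defensin, was at 5.35 ± 2.99 FPKM (SD, n = 5) and 1.92 ± 0.687 (difference −0.99, interval −1.69 to −0.28), and CYP4F22, a fatty acid hydroxylase, at 1.94 ± 1.99 and 0.466 ± 0.192 (difference −0.79, interval −1.44 to −0.15). IGFL1, a secreted IGF-like protein, KRT14, a basal keratin, and PRKG2, a cyclic GMP-dependent kinase, differed by 0.16, −0.23 and 0.16 with intervals inside 1 log2 unit. All 3 had means of at most 1.13 FPKM at both doses. DEFB1, CYP4F22, KRT14 and PRKG2 were named after their values were seen, to complete the 20.

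**Figure D2:**
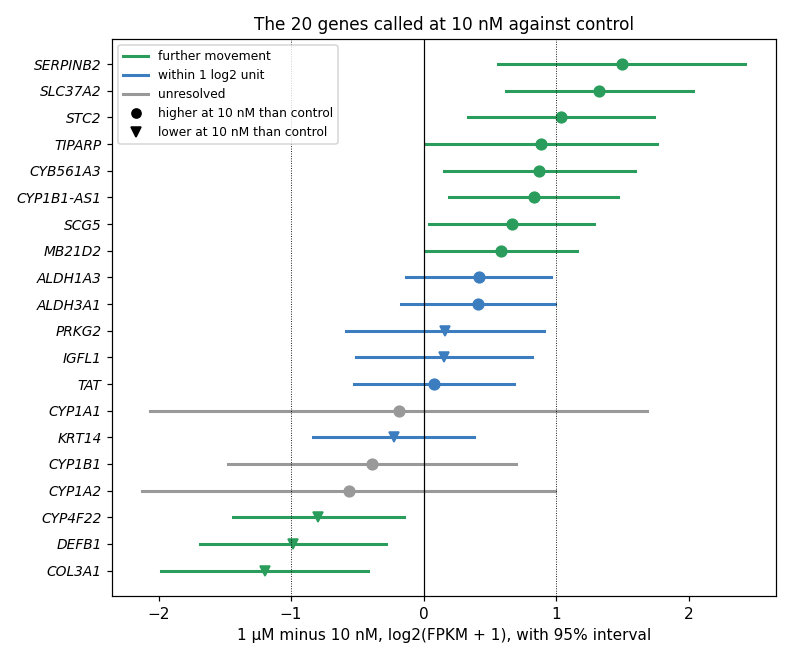
Difference between 1 µM and 10 nM in log2(FPKM + 1) for the 20 genes called at 10 nM against control, with the 95% interval from the fit of 4 groups; circles rose and triangles fell at 10 nM, and dotted lines mark 1 log2 unit. 8 raised and 3 lowered genes (green) have intervals beyond 0 in the direction they had moved, 6 (blue) stay within 1 log2 unit, and the 3 CYP1 genes (grey) have intervals too wide for either. The 20 genes were chosen on the same 10 nM libraries that enter the difference, so the sorting is a description only.

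Over all 182 genes called at 1 µM against control, the same sorting gave 100 genes with further movement, 39 within 1 log2 unit of their 10 nM level and 43 unresolved, and 0 went back towards control. Further movement means that the unadjusted 95% interval of the difference between doses excluded 0 in the direction of the change from control. The sorting is a description only, because the genes were selected on the same 1 µM libraries. Of the 63 raised genes, 38 moved further, with a median of 0.89 from control to 10 nM and 0.79 from 10 nM to 1 µM, 12 were within the limit (1.17 and 0.32) and 13 unresolved (1.22 and 0.42). Of the 119 lowered genes, 62 moved further (−0.71 and −0.86), 27 were within the limit (−0.91 and −0.30) and 30 unresolved (−0.87 and −0.55).

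The same few libraries set the spread in these groups of genes. Among the 38 raised genes with further movement, replicate 3 of 10 nM was the lowest 10 nM library for 35 (92.1%) and replicate 1 the highest for 30 (78.9%). Among the 62 lowered ones, replicate 4 of 10 nM was the highest for 55 (88.7%) and replicate 5 the lowest for 47 (75.8%), and replicate 1 of 1 µM was the lowest 1 µM library for 49 (79%). The other classes showed this too. Replicate 3 of 10 nM was lowest for 12 of 12 raised genes within the limit and 13 of 13 unresolved raised genes. Replicate 4 of 10 nM was highest for 25 of 27 lowered genes within the limit and 26 of 30 unresolved lowered genes. With 75th percentile scaling, replicate 3 of 10 nM was lowest for 27 of the 38 (71.1%) and replicate 4 highest for 53 of the 62 (85.5%). Without replicate 3 of 10 nM, raised genes with further movement numbered 16. Without replicate 1 of 1 µM lowered genes with further movement numbered 20, and without replicate 4 of 10 nM 21, whereas without replicate 5 of 10 nM they numbered 102. As deposited, 29.7% of the FPKM of replicate 3 of 10 nM and 24.1% of that of replicate 1 of 1 µM were on transcripts without a gene name, against 13.2% to 19.5% in the other 8 libraries. The part of this share in the results was not tested.

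Of 25 AhR target genes listed, CYP2S1, NQO1, SLC7A5, XDH and FGF21 did not pass the filter on variance, so their response was not assessed. The remaining 20 entered the tests. Their median difference between the doses was 0.03, beside −0.05 for all genes tested, although their median stood 1.52 above control at 10 nM and 1.90 at 1 µM. Of the 20, 0 passed the adjusted threshold. At an unadjusted p under 0.05, 5 were higher (SERPINB2, STC2, TIPARP, CYB561A3 and SCG5) and 2 lower (GSTA1 and GSTA2), beside 1.26% and 2.06% of all genes. The list includes genes that earlier results of these data had shown to respond. Its level against control and its count between the doses are therefore not independent. GSTA1 and GSTA2, glutathione transferases with near-identical sequences whose reads may be shared, differed by −0.79 (interval −1.55 to −0.03) and −0.86 (interval −1.63 to −0.10). UGT1A1, the bilirubin-conjugating enzyme, which shares exons with the other UGT1A genes, was at 197 ± 102 FPKM (SD, n = 5) at 10 nM and 243 ± 101 at 1 µM (difference 0.36, interval −0.59 to 1.31).

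The receptor machinery itself showed no called difference. AHR was at 56.8, 60.7, 31.6, 73.3 and 37.8 FPKM at 10 nM and at 11.5, 63.0, 53.4, 54.5 and 36.2 FPKM at 1 µM. Replicate 1 of 1 µM was the only library under 30 FPKM, and the difference of −0.38 (interval −1.09 to 0.33) was 0.03 without it. ARNT, the partner of AHR, differed by −0.09 (interval −0.63 to 0.45) and AHRR, the repressor, by 0.00 (interval −0.58 to 0.59). AHRR was low throughout, at 1.41 to 4.11 FPKM at 10 nM and 1.2 to 5.28 FPKM at 1 µM. EREG, an EGF receptor ligand, was at 4.71 ± 1.77 FPKM (SD, n = 5) and 4.91 ± 2.37, a difference of −0.01 (interval −0.67 to 0.64).

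Outside the AhR list, the genes with the smallest p among those higher at 1 µM stood on either side of control at 10 nM. Of these 11 genes, 6 had means above control at 10 nM, of which SLC37A2 passed the adjusted threshold there and IL17RB, PLEKHF1, GPAM, VSTM2L and HHLA3 did not, and 5 had means below it (HOOK2 and 4 small RNAs described last). IL17RB, a receptor for IL-25, was at 7.41, 6.33, 1.76, 1.62 and 12.8 FPKM at 10 nM and at 4.38, 25.6, 30.3, 21.5 and 11.6 FPKM at 1 µM. 3 libraries of 1 µM were above the 10 nM range and the other 2 inside it (difference 1.54, interval 0.60 to 2.48, exact p = 0.0556). PLEKHF1, an endosomal PH and FYVE domain protein, was at 13.6 ± 6.15 FPKM (SD, n = 5) and 26.1 ± 3.94 (difference 1.01, interval 0.42 to 1.59, exact p = 0.0159). GPAM, which catalyses the first step of glycerolipid synthesis, was at 5.41, 2.15, 2.34, 1.71 and 4.17 FPKM at 10 nM and at 8.00, 7.14, 5.29, 5.75 and 7.65 FPKM at 1 µM. A single 1 µM library of GPAM lay below the highest 10 nM value (difference 0.97, interval 0.36 to 1.57, exact p = 0.0159). VSTM2L and HHLA3 differed by 1.07 (interval 0.42 to 1.71) and 0.99 (interval 0.35 to 1.62). HOOK2, a microtubule adaptor, stood at −0.44 against control at 10 nM (adjusted p = 0.865 in limma) and differed by 0.90 between the doses (interval 0.39 to 1.41). SLC2A1, the glucose transporter GLUT1, was at 24.2 ± 11.7 and 41 ± 10.1 FPKM (difference 0.86, interval 0.16 to 1.56).

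Secreted products of hepatocytes were mostly at lower levels at 1 µM, without a call for any of them in the unweighted fit. APOA2, a structural protein of high-density lipoprotein (chr1:161222292-161223631, minus strand), was at 6.79, 16, 14.6, 38.2 and 5.06 FPKM at 10 nM and at 0.948, 4.12, 3.22, 3.80 and 3.38 FPKM at 1 µM, against 20.8 to 43.6 in control. No 1 µM library reached the lowest 10 nM library (difference −1.82, interval −2.69 to −0.96, exact p = 0.00794, the smallest p that 252 splits allow). It had the smallest unadjusted p of the genes lower at 1 µM, 0.000198, and the difference ran from −2.12 to −1.45 when 1 library was left out. HRG, histidine-rich glycoprotein of plasma, was at 56.2, 92.8, 43.4, 134 and 40.4 FPKM at 10 nM and at 8.67, 39.995, 32.2, 42.4 and 32.2 FPKM at 1 µM. The doses overlapped for HRG by 1 library, replicate 4 of 1 µM (difference −1.23, interval −2.0 to −0.45, exact p = 0.0159).

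Of 28 hepatocyte secreted proteins listed, 26 were tested and 25 lay below 0, where 57.8% of all genes did, and 8 were lower with an unadjusted p under 0.05, as were 2.06% of all genes, and 0 passed the adjusted threshold. Their median was −0.53, beside −0.05 for all genes, and it stayed negative, from −0.71 to −0.31, under each of 32 alternatives, being −0.31 without replicate 1 of 1 µM and −0.40 without replicate 4 of 10 nM. TTR, the thyroid hormone and retinol carrier, was at 194, 290, 173, 445 and 103 FPKM at 10 nM and at 61, 123, 144, 172 and 102 FPKM at 1 µM. 4 of the 10 nM libraries were above all 1 µM libraries (difference −0.91, interval −1.61 to −0.20, exact p = 0.0635). The other 7 were F2 or prothrombin (−1.66), AHSG or fetuin-A (−1.17), SERPINC1 or antithrombin (−1.08), complement C5 (−0.80), FGB, the fibrinogen beta chain (−0.78), the haem-binding HPX (−0.75) and ITIH2 (−0.60). With array weights limma called AHSG, SERPINC1, HPX, C5 and ITIH1 of this list lower (adjusted p = 0.0358, 0.0149, 0.0149, 0.0417 and 0.0479). ALB, albumin, was at 8633 ± 3953 FPKM (SD, n = 5) at 10 nM and 5570.3 ± 2084 at 1 µM (difference −0.60, interval −1.21 to 0.01). In bulk samples, fewer cells of a type and less RNA per cell cannot be told apart.

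**Figure D3:**
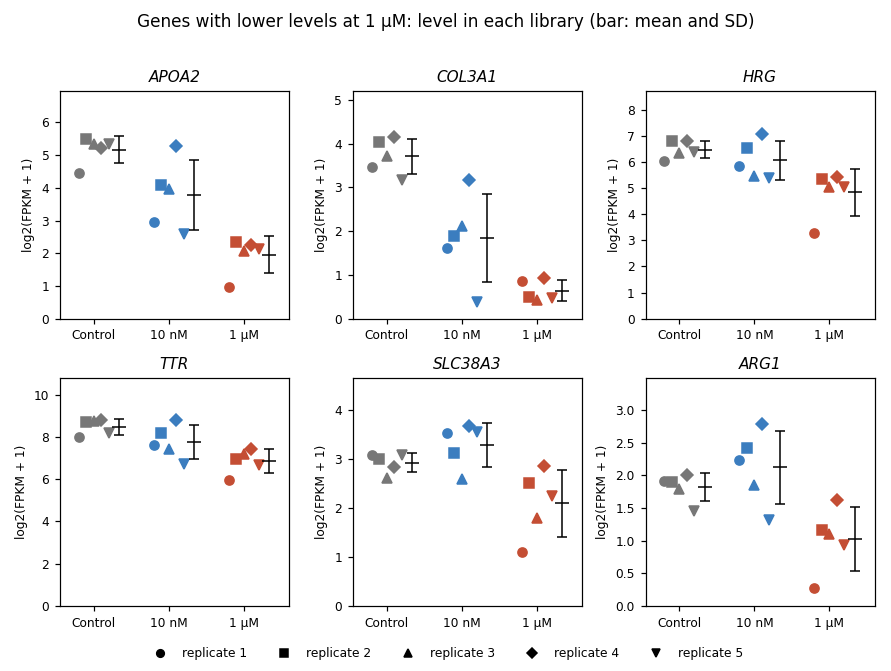
Level of 6 genes with lower means at 1 µM in each library of the control, 10 nM and 1 µM groups, as log2(FPKM + 1) on the vertical axis, with 1 symbol per library, its shape the replicate number, and the mean and SD of the 5 libraries. The means of APOA2, COL3A1, HRG and TTR are lower at 10 nM than in control and lower again at 1 µM, whereas SLC38A3 and ARG1 are at or above control at 10 nM (0.37 and 0.31) and below the 10 nM mean at 1 µM by −1.19 and −1.10.

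Some genes were near their control level at 10 nM and had lower means at 1 µM than at 10 nM, without a call between the doses in the unweighted fit. SLC38A3, a glutamine transporter of hepatocytes (chr3:50205246-50221486, plus strand), was at 10.5, 7.69, 4.99, 11.7 and 10.8 FPKM at 10 nM and at 1.14, 4.68, 2.44, 6.26 and 3.74 FPKM at 1 µM, with control at 5.13 to 7.45. A single 1 µM library, replicate 4, lay above the lowest 10 nM library (difference −1.19, interval −1.80 to −0.59, exact p = 0.0159). ARG1, which closes the urea cycle (chr6:131573144-131584332, plus strand), was at 3.70, 4.32, 2.62, 5.87 and 1.5 FPKM at 10 nM and at 0.210, 1.23, 1.16, 2.08 and 0.913 FPKM at 1 µM. Here too 1 library of each dose crossed (difference −1.10, interval −1.68 to −0.52, exact p = 0.0159). Against control, ARG1 stood at 0.31 at 10 nM and at −0.79 at 1 µM (adjusted p = 0.865 and 0.182 in limma). MMP13, collagenase 3, was at 2.91 ± 1.77 FPKM (SD, n = 5) and 0.532 ± 0.169 (difference −1.2, interval −1.84 to −0.56), and stood at −0.02 from control at 10 nM and at −1.22 at 1 µM (adjusted p = 0.0379 in limma). With array weights limma called SLC38A3, ARG1 and MMP13 lower at 1 µM than at 10 nM (adjusted p = 0.0463, 0.0128 and 0.00317).

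The remaining genes among the 12 with the smallest p on the lower side were VSIG1, an adhesion protein (−1.24, interval −1.87 to −0.61), the pantetheinase VNN2 (−1.79, interval −2.92 to −0.66), TRIM23 (−1.71, interval −2.64 to −0.77), GOLIM4 (−1.48, interval −2.32 to −0.64), STXBP3 (−1.09, interval −1.72 to −0.47) and PAQR9 (−0.86, interval −1.37 to −0.34). Among them, VNN2 and TRIM23 varied widely within control, at 0.0777 to 14.2 FPKM and 0.109 to 5.91 FPKM. At 1 µM both were high in replicate 2 alone, VNN2 at 2.07 FPKM and TRIM23 at 5.82. The remaining 1 µM libraries were at 0 to 0.138 FPKM for VNN2 and 0.0475 to 0.247 for TRIM23.

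The doses did not overlap for 10 of the 9755 genes (0.103%), named here after their values were seen. The 4 higher at 1 µM (0.041%) were COL18A1, the collagen that holds endostatin (0.53, but −0.16 when only the most abundant transcript of each gene was used), PSD4 (1.16), the splicing factor SRSF10 (0.94) and SYT12 (0.79). SRSF10, for example, was at 2.95, 3.36, 4.34, 2.98 and 2.48 FPKM at 10 nM and at 5.28, 6.28, 11.8, 8.08 and 5.19 FPKM at 1 µM, against 3.87 to 9.72 in control. All 1 µM libraries of SRSF10 were above the 10 nM libraries, and replicate 3 of 1 µM was also above every control library. The 6 lower (0.0615%) were APOA2, CYP4A11, a fatty acid omega-hydroxylase (−1.10), CADPS2 (−1.21), FOXN2 (−1.0), PAQR9 (−0.86) and CENPF, a kinetochore protein (−0.71). CYP4A11 was at 1.79, 2.58, 1.00, 6.09 and 1.27 FPKM at 10 nM and at 0.0486, 0.459, 0.477, 0.918 and 0.624 FPKM at 1 µM. Lack of overlap fixes the exact p of all 10 at 0.00794, the smallest that 252 splits allow, so this p adds no support. That value is also the share of splits that separate 5 libraries from 5, and the share of genes without overlap was smaller. Each of the 10 genes had an adjusted p of 0.9997 in limma.

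Other hepatic gene groups were described by count and median, and 0 genes passed the adjusted threshold in any of the 33 lists. Over all genes tested 57.8% lay below 0, and 1.26% were higher and 2.06% lower with an unadjusted p under 0.05. Of 9 apolipoproteins tested, 8 lay below 0 (median −0.37). Of 12 genes of bile acid synthesis and transport, 9 lay below 0 (median −0.44), with SLCO1B1, a hepatic uptake transporter, at −1.01 (interval −1.79 to −0.23). The median of the bile acid list was −0.10 without replicate 1 of 1 µM, and that of the apolipoproteins −0.10 without replicate 4 of 10 nM. Among 23 conjugating enzymes, 5 had an unadjusted p under 0.05 and were lower (GSTA1, GSTA2, UGT2A3, UGT2B10 and UGT2B11), and 1, the nicotinamide methyltransferase NNMT, was higher (0.97, interval 0.06 to 1.88). Among 16 genes of the CYP2, CYP3A and CYP4 families with their receptors the median was −0.04, and CYP2C8, which may share reads with near-identical genes of its family, differed by −0.99. Of 20 cell cycle genes, 16 lay below 0 (median −0.27), and of 50 replication-dependent histone genes, 42 did (median −0.29). Among 20 glycolysis and hypoxia genes the median was 0.00, with SLC2A1 (0.86), NDRG1 (0.83) and ADM, adrenomedullin (0.79), at an unadjusted p under 0.05.

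**Figure D4:**
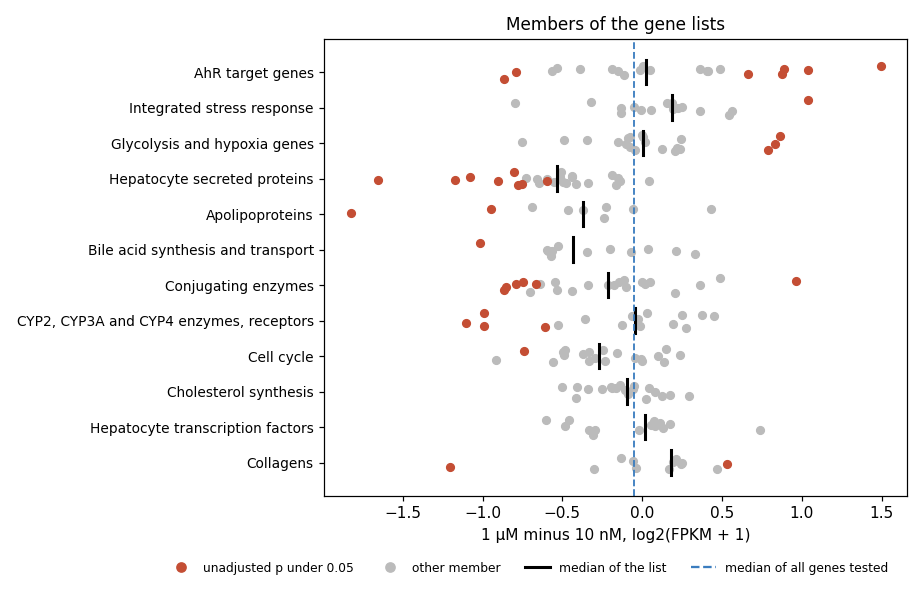
Difference between 1 µM and 10 nM in log2(FPKM + 1) for the tested members of 12 gene lists, 1 point per gene, with the median of each list as a black bar and the median of all genes tested as a dashed line. Members with an unadjusted p under 0.05 are red, and the hepatocyte secreted proteins (25 of 26 below 0) and apolipoproteins (8 of 9 below 0) lie left of the median of all genes, while the AhR target genes spread to both sides.

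Hepatocyte markers were measured at both doses, at lower summed levels at 1 µM than in control. All 14 hepatocyte markers had a median of at least 1 FPKM over the 10 libraries, and their summed level was 14648 to 21358 FPKM in control, 8604 to 22721 at 10 nM and 5743 to 14590 at 1 µM, lowest in replicate 1 of 1 µM. The sums at 1 µM did not overlap those in control and overlapped those at 10 nM. A sum follows its most abundant members. Taken singly, 9 of the 14 lay below 0 between the doses and 5 above (median −0.28). At 1 µM against control 3 were called lower and 1, TAT, higher. Of 18 biliary and progenitor markers, 6 were below 1 FPKM in all 10 libraries (among them EPCAM, at 0, CFTR, AQP1, CLDN4 and PROM1), and the list summed to 349 to 739 FPKM in control, 236 to 487 at 10 nM and 244 to 392 at 1 µM. Of 15 stellate and fibroblast markers 6 were below 1 FPKM in all 10 libraries, with COL1A2 listed at 0, and of 12 immune and endothelial markers 9 were, with CD3E and CDH5 listed at 0. Sums of the stellate and fibroblast list had medians of 106 FPKM in control, 150 at 10 nM and 188 at 1 µM. These sums ranged over 53.4 to 115, 60.8 to 176 and 56.5 to 203 FPKM. Between the doses, 5 of its 8 tested members lay below 0 and 3 above. Of the 8 stellate and fibroblast markers tested, COL3A1 was lower and DCN, decorin, higher (0.65, interval 0.03 to 1.28) with an unadjusted p under 0.05. In the list of matrix turnover and proteoglycans, FN1, fibronectin, differed by −0.89 (interval −1.67 to −0.12) and POSTN, periostin, by −0.95 (interval −1.77 to −0.13). Mitochondrially encoded genes summed to 1287 to 3180 FPKM at 10 nM and to 354 to 2657 at 1 µM, again lowest in replicate 1 of 1 µM. The part of these levels in the differences between doses was not tested.

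Small structural RNAs were among the genes with the smallest p on the higher side. RN7SL2, an RNA of the signal recognition particle, was at 18358 ± 6461 FPKM (SD, n = 5) at 10 nM and 32600.4 ± 6379 at 1 µM (difference 0.89, interval 0.32 to 1.45, exact p = 0.0159). The small nucleolar RNA SNORD3D was at 0.896, 0.567, 0.801, 1.77 and 6.16 FPKM at 10 nM and at 6.71, 14.6, 10.6, 2.12 and 45.5 FPKM at 1 µM, a difference of 2.18 (interval 0.87 to 3.49). SNORD3B-2 and SNORD15B differed by 1.2 (interval 0.44 to 1.97) and 1.21 (interval 0.43 to 1.98). These RNAs have near-identical copies that may share reads. The 14 structural and nuclear RNAs tested had a median of 0.39, and the 15 listed summed to 45289 to 130629 FPKM at 10 nM and to 70569 to 116912 FPKM at 1 µM.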

How the data were processed

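Total RNA of HepaRG cells was sequenced as read pairs. Per the labels and the methods of the study, the authors used HISAT2 for alignment to GRCh38 and StringTie with the Ensembl annotation for assembly and quantification, and deposited FPKM for 234960 transcripts in each of 20 PCB 126 libraries, unpooled and not scaled between libraries. Deposited columns holding negative values were treated as a score, and 4 such values were set to 0. Transcripts without a gene name (35782) were left out, FPKM were summed per gene name (135 names lie on more than 1 chromosome), and genes with a variance above 1 were kept, a filter the study applied to transcripts. limma 3.58.1 in R 4.3.3 was fitted to log2(FPKM + 1) of 4 groups with Benjamini-Hochberg adjustment over 9755 genes and a threshold of 0.05. Single genes and library measures were also compared by 2-sided exact permutation tests over 252 splits, unadjusted for genes. A gene was called within the limit when its 95% interval lay inside 1 log2 unit. Tables were handled with Python 3.11.15, numpy 2.4.6 and pandas 2.3.3, and figures with matplotlib 3.10.9. The fit was tested on simulated data with independent noise between libraries and changes larger than most differences reported here. That test does not measure the power of the fit for the differences between these doses.

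Genes were named by a rule: the 12 smallest p in each direction at 1 µM against 10 nM, the 10 smallest p at 10 nM against control, the AhR target genes with AHR, ARNT, AHRR and TIPARP, up to 5 members of each of the other lists, and the genes the study names, 205 in all, of which those that bear on the comparison are printed. The groups of genes and the 33 lists were chosen with earlier results of these data known. Alternatives were other pseudocounts, filters, scalings and models, a replicate block, array weights, subsets of libraries and leaving out each library. The subset of 5 libraries (10 nM replicates 3 and 5, 1 µM replicates 1 and 5, control replicate 5) was left out for their share of multiply aligned read pairs in the study's alignment summary. The replicate numbers were not taken as pairs. Deviations from the group means correlated at −0.056 to 0.169 between libraries of the same number (median 0.063). Between other libraries they correlated at −0.161 to 0.159 (median −0.018). The glyphosate and Roundup libraries were not used here, and some genes are not reported here by name.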

Additional observations from a re-analysis of the deposited data

Results flagged for a closer look

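The highest and lowest library of each dose were compared with the other 4, for a set of the genes named in the report and for the library measures. Genes were compared on the log2(FPKM + 1) scale and library measures on their own scale. The set did not hold every named gene, and TRIM23, VNN2 and SNORD3B-2 were outside it. In 15 of 180 groups of 5 libraries an end value stood apart by more than 0.71 of the range, which chance gives in about 1 of 20 groups.

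At 1 µM, replicate 1 stood apart 7 times, each time as the lowest library, with APOA2 at 0.948 FPKM, CENPF at 1.10, FGB at 234.0, GSTA2 at 14.4, HRG at 8.67, POSTN at 0.0878 and VSIG1 at 0.115. Replicate 5 of 1 µM was the lowest for PFKFB3 at 5.55 FPKM and PLEKHF1 at 19.3. At 10 nM, replicate 3 stood apart 4 times, again as the lowest, with COL18A1 at 20.9 FPKM, EREG at 1.76, FUCA1 at 20.0 and TAT at 0.882. PRKG2 was highest in replicate 4 of 10 nM at 0.513 FPKM and in replicate 3 of 1 µM at 1.74 FPKM.

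Leaving out replicate 1 of 1 µM brought the difference between the doses closer to 0 for each of its 7 genes. In limma, APOA2 (−1.58), HRG (−0.84) and VSIG1 (−1.10) then kept an unadjusted p under 0.05, and CENPF (−0.48), FGB (−0.45), GSTA2 (−0.47) and POSTN (−0.46) did not. Leaving out replicate 3 of 10 nM gave 0.37 for COL18A1, 0.38 for FUCA1, −0.26 for EREG and −0.22 for TAT.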

How the results depend on the processing

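Each group had 5 libraries, FPKM hold no read counts, and the values are not scaled between libraries, so differences in library composition add to the spread within a dose. 0 genes were called at 1 µM against 10 nM under other pseudocounts, filters, quantile normalization, fits of 2 groups, ordinary linear models and the most abundant transcript. The count was 1 with 75th percentile scaling, 78 with array weights, 4 without the 5 libraries named above (MMP13, SLC14A1, SNORD17 and SPP1), and 0 to 2 when 1 library was left out, 2 without replicate 5 of 10 nM (MMP13 and VSIG1). With settings chosen after seeing the data it was 7 with 75th percentile scaling without the 5 libraries and 2 without all replicates 5. The cause of these counts was not tested.

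At 10 nM against control, in place of 20, 69 genes were called with 75th percentile scaling, 184 with quantile normalization, 12 with an ordinary linear model, 113 with that model and a library-size term, 239 with array weights, 56 without the 5 libraries, 68 and 97 with 75th percentile scaling without the 5 libraries or with a block, and 15 to 35 with 1 library left out (35 without replicate 3 and 32 without replicate 4 of 10 nM). At 1 µM against control, in place of 182, the counts were 592, 1085, 823 (library-size term), 946, 520, 710 and 764 in the same order of settings, and 118 (without control replicate 4) to 366 (without control replicate 5) with 1 library left out. With the replicate number as a block, the counts were 0 for the step, 37 at 10 nM and 357 at 1 µM. The block thus changed no call between the doses, although genes with an unadjusted p under 0.05 for the step numbered 444 in place of 324. The numbers are not known to pair the libraries.

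Genes with further movement (100) numbered 324 with 75th percentile scaling, 301 without the 5 libraries and 51 to 141 with 1 library left out, lowest without replicate 4 and highest without replicate 5 of 10 nM. Genes within the limit (39) numbered 0 with a limit of 0.5 log2 units, 235 with 75th percentile scaling, 172 without the 5 libraries and 18 to 71 with 1 library left out (71 without replicate 3 of 10 nM). Unresolved genes (43) numbered 82 with the limit of 0.5 and 44 to 93 with 1 library left out (93 without replicate 4 of 10 nM). Genes back towards control (0) numbered 1 with 75th percentile scaling, 1 without the 5 libraries and 0 to 1 with 1 library left out. The difference in the share of the 10 most abundant genes was 10.6 percentage points without the 5 libraries (exact p = 0.1) and 4.66 to 9.57 with 1 library left out, not under 0.05 in 5 of those 10 fits.

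Of 7829 values of named genes under the alternatives, 7702 kept their sign, 48 passed the threshold and 40 moved beyond the spread. The 127 that changed sign belong to 50 genes, 49 of which had an unadjusted p of 0.05 or above as reported, CYP1A1, CYP1B1, AHRR and EREG among them. The other was COL18A1, at −0.16 when a single transcript, the most abundant, stood for each gene. All 1155 list medians moved by less than the spread between replicates, but medians near 0 did not all keep their sign. The urea cycle and gluconeogenesis list kept it in 21 of 32 alternatives and the hepatocyte transcription factors in 22. The glycolysis and hypoxia list kept its sign in 24. By contrast the hepatocyte secreted proteins, apolipoproteins and bile acid list kept theirs in all 32.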

Other observations

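The signal recognition particle RNA at chr14:49586580-49586878 (plus strand, GRCh38) was listed under either of 2 overlapping gene names. RN7SL1 was listed at 0 in 5 of 5 control libraries, in 2 of 5 at 10 nM and in 4 of 5 at 1 µM, and in each library the FPKM stood under a single name, the other being AL139099.5. Taken alone, RN7SL1 differed between the doses by −5.60 and AL139099.5 by 6.29 on the log2 scale. The sum of both names was 11909 to 33383 FPKM at 10 nM and 28504 to 42168 FPKM at 1 µM, a difference of 0.69 (exact p = 0.0238). AL139099.5 was chosen after its values were seen.

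Several genes called at 1 µM against control but not at 10 nM were chosen after their values were seen. UGCG, the glucosylceramide synthase, was at 50.9 ± 18.1 FPKM (SD, n = 5) at 10 nM and 63.8 ± 21.2 at 1 µM (difference 0.34, interval −0.29 to 0.97). AREG, an EGF receptor ligand, was at 3.55 ± 1.49 and 3.53 ± 0.877 FPKM (difference 0.03, interval −0.47 to 0.54). ABCG2, a xenobiotic efflux transporter, was at 2.41, 2.09, 1.48, 2.64 and 2.84 FPKM at 10 nM and at 2.31, 6.78, 6.16, 4.92 and 2.10 FPKM at 1 µM, a difference of 0.64 (interval 0.01 to 1.28). 3 of its 1 µM libraries were above the 10 nM range and replicates 1 and 5 were inside it. SLC14A1, the urea transporter UT-B, was at 0 to 0.0782 FPKM in control, at 0.237 to 4.43 at 10 nM and at 1.59 to 4.95 at 1 µM (difference 0.71, interval 0.08 to 1.33). In the fit of only the 10 libraries the interval of UGCG reached 1.07. There the intervals of ABCG2 (−0.05 to 1.33) and SLC14A1 (−0.10 to 1.51) included 0.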
